A study of Mus musculus with 4 samples.

Results

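The insulin-like growth factor binding proteins (IGFBPs) Igfbp1 to Igfbp7 were measured in the livers of mice given aristolochic acid I (AAI), a kidney toxin of Aristolochia plants. The family was chosen with earlier results of these data known. Its probes were chosen by name alone: every non-control probe of the array that the files name for 1 of these 7 genes was taken, whatever its signal. This gave 10 probes among 56605 and 7 genes among the 37021 gene names of the array. Igfbp1, Igfbp2, Igfbp6 and Igfbp7 had 1 probe each, and Igfbp3, Igfbp4 and Igfbp5 had a brighter and a further probe. Of the 10 probes, 9 were well above background on all 4 arrays, and the exception was the further Igfbp5 probe.

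The study concerned the part of the liver enzyme glycine N-methyltransferase in AAI-induced kidney injury, and these arrays set AAI against corn oil in the livers of both sexes. All animals were C57BL/6 wild-type mice, 6 weeks old by the sample labels. Females received 5 mg/kg/day AAI and males 2 mg/kg/day, each intraperitoneally on 5 days of the week over 3 weeks, while the control groups of both sexes received corn oil, the solvent. Liver RNA of 5 mice was pooled in equal amounts and hybridized to 1 single-colour array per group, so that the spread between mice was averaged away before the measurement. No difference below could be tested, no replicate error exists, and precision is limited by the number of arrays. The doses differed between the sexes, so that sex and dose cannot be told apart in the response to AAI. In whole liver RNA, fewer cells of a type and less RNA per cell cannot be told apart either.

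Signals are given as log2 of the spot intensity after quantile normalization over the 4 arrays. A log2 ratio is the AAI-treated minus the corn oil-treated signal of the same sex, and folds were taken from it as powers of 2. In place of a replicate error, ratios were read against the SD between the ratios of different probes for 1 gene, whose median was 0.25 in females (9128 genes), 0.24 in males (8618 genes) and 0.23 between the corn oil-treated sexes (8893 genes). The scanner's own error estimate, propagated to a ratio, was 0.20 to 0.21 on the log2 scale for the brightest probe of every member. Each member was read from 1 spot per probe and array, and none of these spots was marked as an outlier or as saturated.

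IGFBPs are secreted proteins that bind insulin-like growth factors (IGFs), carry them in the blood and control how much reaches the receptors. The liver is the main source of circulating IGF1, which growth hormone induces there, and hepatocytes secrete Igfbp1 and Igfbp2, both known to increase in fasting. Igfbp3 carries most circulating IGF in a complex with the acid-labile subunit, Igfbp5 can form the same complex, Igfbp4 mostly inhibits IGF action, Igfbp6 prefers IGF2, and Igfbp7 binds IGFs weakly and is made largely by vascular and mesenchymal cells.

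Sequences are shown for the members on which the results turn. The reference promoter windows, which are the 250 bases before the transcription start and the bases searched for motifs, were taken from RefSeq on mouse genome build GRCm38.p6, which differs from the array's build mm9. Igfbp1 is shown as the member that differed most between the control sexes, and Igfbp5 and Igfbp6 as the members that differed most between AAI and corn oil. Capitals mark matches, on either strand, to CAAAACA (the core of the insulin response element), TATAAA (the TATA box), TTCNNNGAA (the STAT5 site) and TTAATNATT (a core of the HNF1 site), 4 motifs picked for factors known to act on this family or in hepatocytes.
Igfbp1 (chr11:7197537-7197786, plus strand): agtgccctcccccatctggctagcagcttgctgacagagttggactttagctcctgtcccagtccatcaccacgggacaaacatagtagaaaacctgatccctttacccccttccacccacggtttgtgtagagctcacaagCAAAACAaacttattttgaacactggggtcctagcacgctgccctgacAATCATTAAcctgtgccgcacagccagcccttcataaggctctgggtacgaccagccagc
Igfbp5 (chr1:72874866-72875115, minus strand): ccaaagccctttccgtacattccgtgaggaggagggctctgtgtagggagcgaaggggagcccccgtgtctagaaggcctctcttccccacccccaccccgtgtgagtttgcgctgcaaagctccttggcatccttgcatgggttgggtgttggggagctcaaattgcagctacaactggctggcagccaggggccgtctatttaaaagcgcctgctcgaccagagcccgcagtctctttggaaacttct
Igfbp6 (chr15:102143936-102144185, plus strand): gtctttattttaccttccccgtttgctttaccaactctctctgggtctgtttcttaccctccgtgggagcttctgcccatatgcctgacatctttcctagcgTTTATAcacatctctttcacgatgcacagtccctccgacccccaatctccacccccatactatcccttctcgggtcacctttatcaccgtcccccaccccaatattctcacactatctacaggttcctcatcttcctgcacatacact
CAAAACA lay 108 to 102 bases before the Igfbp1 start on the plus strand, and was held by 1 of the 8 windows of the family (Igfbp2 has an additional start) and by 5.56% of all 32851 windows. TTAATNATT matched the same Igfbp1 window on the minus strand, 60 to 52 bases before the start, and is held by 1.40% of all windows. TATAAA was matched in the windows of Igfbp6, on the minus strand 148 to 143 bases before the start, and of Igfbp4, on the plus strand 28 to 23 bases before it, against 12.4% of all windows. TTCNNNGAA was matched in no window of the family, against 7.02% of all windows. No matches of different motifs overlapped in the family's windows, and a match describes letters, not a bound site.

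The probes of Igfbp5 and Igfbp6 are given by their first 30 of 60 bases, in lower case throughout, because the opposite ratios of both genes in the sexes rest on them.
Igfbp5 brightest probe (mm9, chr1:72904829-72904888, minus strand): cacatcacatattactgtagctctctatag
Igfbp5 further probe (mm9, chr1:72904506-72904552, minus strand): tttagcattttggtacttaaggaaataaaa
Igfbp6 probe (mm9, chr15:101979852-101979911, plus strand): ctgtcacccttgggcctttacacagctagt
G and C made up 43.3%, 26.7% and 45% of the 3 whole probes. The positions listed for the further Igfbp5 probe cover fewer bases than the probe has. Exon and UTR annotation on mm9 was not used here. On GRCm38.p6, Igfbp1 and Igfbp3 lie 3539 bases apart on chromosome 11, and Igfbp2 and Igfbp5 lie 5590 bases apart on chromosome 1, each pair on opposite strands.

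Of the 7 IGFBP genes, Igfbp5 and Igfbp6 stood apart in AAI-treated livers, with lower signals than the corn oil control in females and higher signals in males. The female Igfbp6 ratio depended on a trend correction described below. With the trend treated alike on all 4 arrays, it was smaller in size than the female Igfbp7 ratio. Igfbp7 was lower in females and level in males, and Igfbp2 was lower in males. Igfbp3 and Igfbp4 were moderately higher in males, and Igfbp1 differed between the control sexes more than between AAI and corn oil. In females 1 member was at least 2-fold lower (Igfbp5) and none at least 2-fold higher, while 3.09% of all 31682 genes compared were lower and 1.37% higher by this much. In males 2 members were at least 2-fold higher (Igfbp5 and Igfbp6) and none at least 2-fold lower, while 3.51% of all 30539 genes were higher and 4.59% lower by this much. The median log2 ratio of the 7 members was -0.28 in females, against 0.04 for all genes above background on both arrays, and 0.43 in males, against 0.02. Beyond the SD between probes, 4 members were lower and none higher in females, where 25.1% of the 29714 genes above background on both arrays were lower and 29% higher by this measure. In males 4 members were higher and 1 lower, against 28.3% and 26.7% of 28433 genes.

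**Figure D1:**
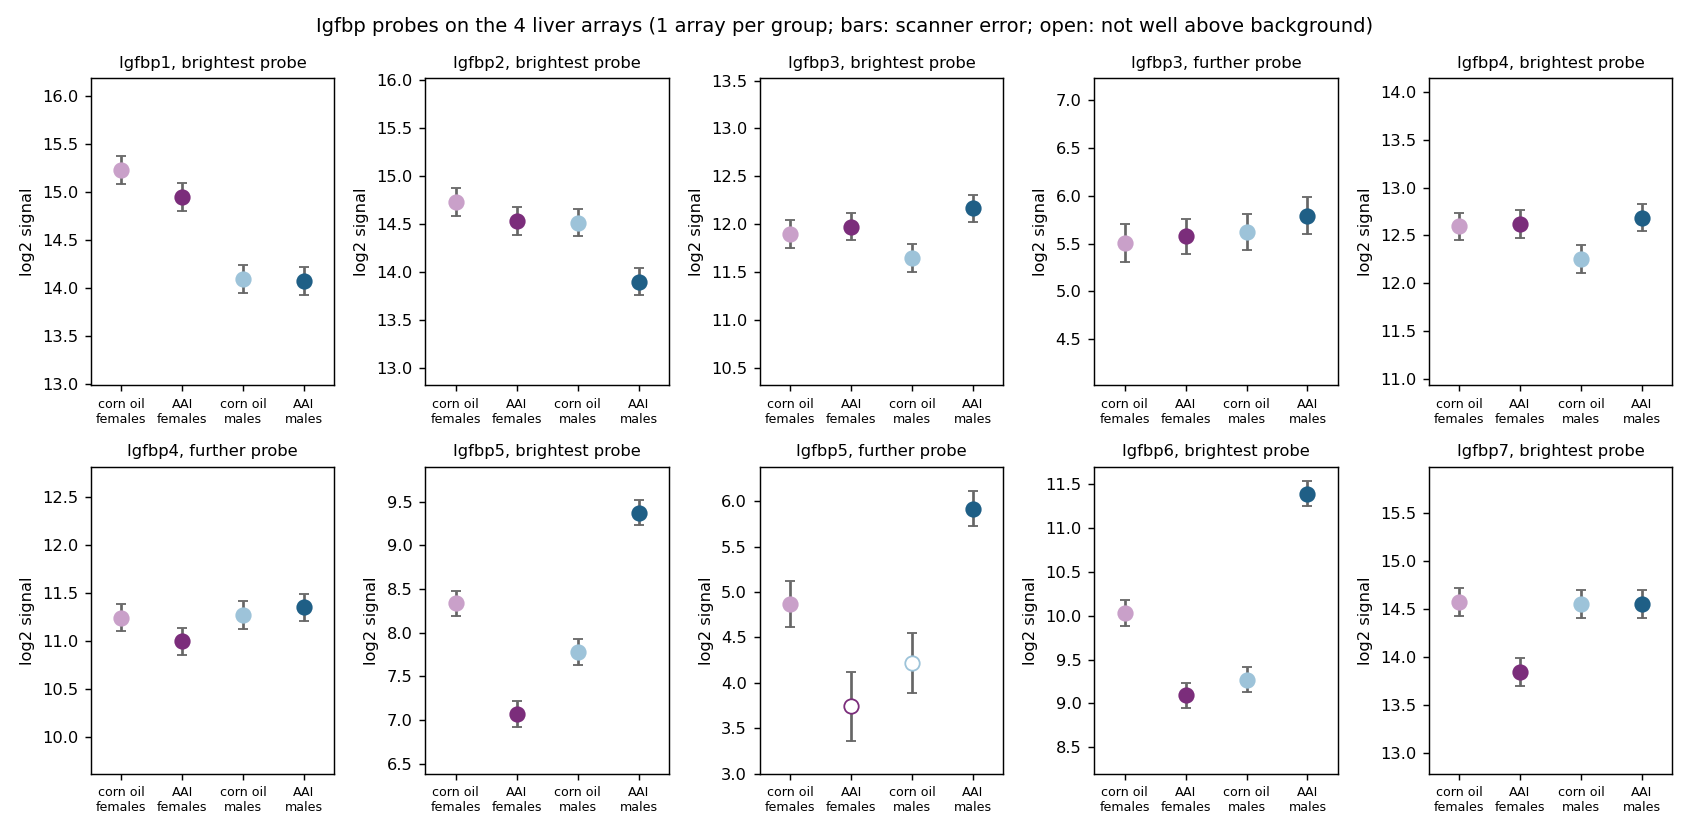
Quantile-normalized log2 signal of the 10 Igfbp probes on each array, 1 panel per probe and 1 point per array (a pool of 5 mice). Axes differ in level, and their span is slightly wider for Igfbp6 and both Igfbp5 probes than for the others. Bars give the scanner's error estimate, and open points are not well above background. AAI-treated males are highest for Igfbp5 and Igfbp6, and AAI-treated females are lowest for the brightest Igfbp5 probe. The Igfbp6 point of AAI-treated females is 0.18 below that of corn oil-treated males as deposited. With the trend corrected on all 4 arrays it is 0.21 above.

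Igfbp5, which binds both IGFs and the extracellular matrix, was read by its brightest probe (NM_010518) at 8.34 and 7.07 in females on corn oil and on AAI, and at 7.78 and 9.37 in males on corn oil and on AAI. The highest and the lowest of the 4 arrays were thus the AAI-treated groups, with the controls between them. Its log2 ratio was -1.27 in females, 2.41-fold lower, and 1.59 in males, 3.02-fold higher. Before normalization the spot had intensities of 303 ± 30.5 and 143 ± 14.9 in corn oil- and AAI-treated females and of 236 ± 24.0 and 635 ± 63.7 in males, where the errors are the scanner's. Within each sex, the intensities with and without AAI lay several scanner errors apart.

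The further Igfbp5 probe (ENSMUST00000027377) was dimmer and gave ratios of the same directions. In females it read 4.87 on corn oil and 3.74 on AAI, and in males 4.22 on corn oil and 5.92 on AAI, with the values of 3.74 and 4.22 not well above background. Its ratios are therefore bounds: at least 2.09-fold lower with AAI in females and at least 3.09-fold higher in males. A bound sets the bright array against the higher of the dim probe's own signal and the lowest signal above background on the dim array. Both Igfbp5 probes thus placed AAI-treated males highest and AAI-treated females below the female controls. Which array was lowest could not be read from the further probe, because its low values were not well above background. Ranked over the array, the Igfbp5 ratio was the 349th lowest of 29714 genes in females and the 368th highest of 28433 in males.

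Igfbp6 (NM_008344), the binding protein with a preference for IGF2, read 10.03 on corn oil and 9.09 on AAI in females, and 9.27 on corn oil and 11.39 on AAI in males. The AAI-treated males were highest. The AAI-treated females lay 0.18 below the corn oil-treated males, which is within the scanner error, so that these arrays could not be ordered. The log2 ratio in males was 2.12, 4.36-fold higher and the 235th highest of 28433 genes. In females it was -0.94, 1.92-fold lower and just short of the 2-fold threshold. The intensities before normalization were 1010 ± 101 and 552 ± 55.4 in corn oil- and AAI-treated females and 670 ± 67.2 and 2610 ± 261 in males.

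The female ratio of Igfbp6 depended on a step of the scanner software. The spot lies where the fitted trend across the array was 0.77 to 0.83 on all 4 arrays, and the software had divided by this trend on 3 arrays but not on that of AAI-treated females. With the trend corrected on all 4 arrays the log2 ratio in females was -0.56, and with it left out on all 4 it was -0.59, lower in AAI-treated females in either case. The lowest array changed as well, since the signal of AAI-treated females was then 0.21 above that of corn oil-treated males in both cases. The male ratio moved little, to 2.12 and 2.22. The Igfbp5 spot had fitted trends of 1.01 to 1.03, and its ratios moved by less than the SD between probes.

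**Figure D2:**
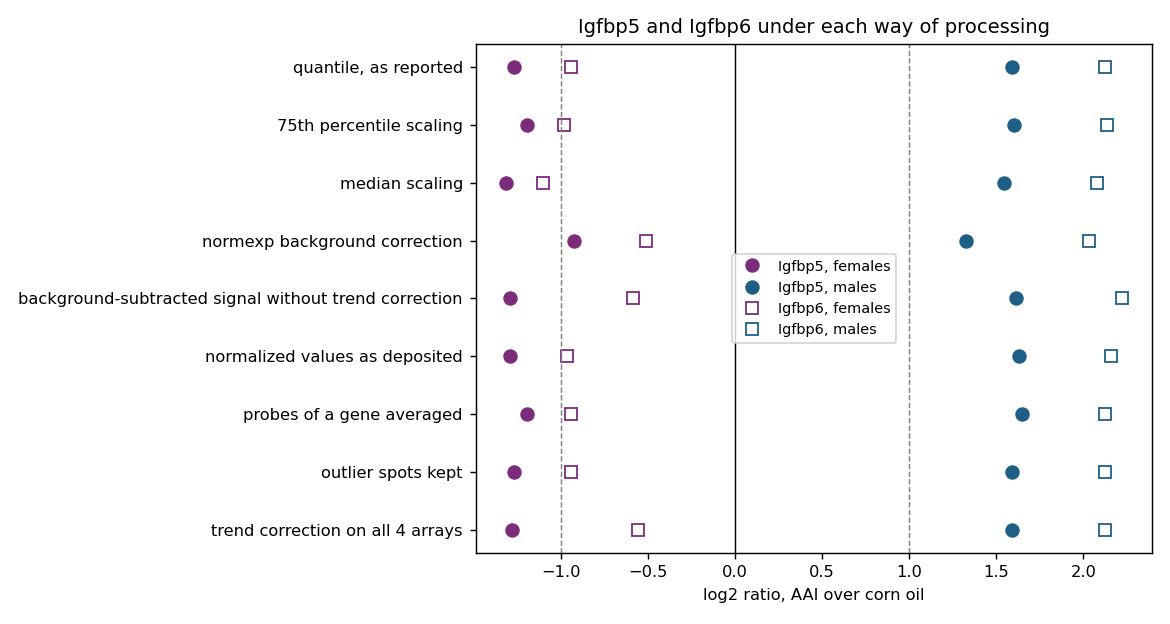
Log2 ratio of AAI over corn oil (horizontal axis) for Igfbp5 (filled circles) and Igfbp6 (open squares) in females (purple) and males (blue), under the reported processing and 8 alternatives; dashed lines mark 2-fold. Every female value lies below 0 and every male value above 1, and the female Igfbp6 value ranges from -1.10 to -0.51.

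Lower in females and higher in males was an uncommon combination at this size. So was each part alone, with 3.09% of genes at least 2-fold lower in females and 3.51% at least 2-fold higher in males. Few genes would thus meet both even if the parts were unrelated. Of 30115 genes, 34 or 0.113% had both a female ratio at least 2-fold down and a male ratio at least 2-fold up, Igfbp5 among them. With the SD between probes as the limit in place of 2-fold, 1478 genes or 4.91% met both conditions, Igfbp5 and Igfbp6 among them. The male log2 ratio exceeded the female by 2.86 for Igfbp5 and by 3.07 for Igfbp6, and by at most 0.73 for the other members. The Igfbp6 excess depended on the trend correction. With the trend corrected on all 4 arrays, or on none, it was smaller and below that of Igfbp5. With 1 array per group these differences between the sexes were not tested.

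**Figure D3:**
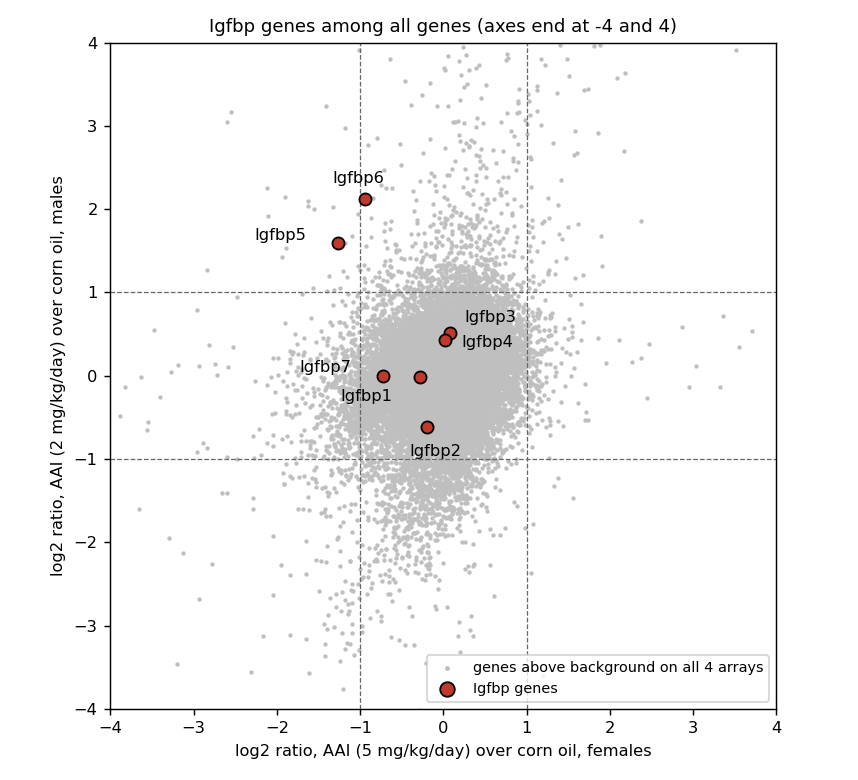
Log2 ratio of AAI over corn oil in females (horizontal axis) against that in males (vertical axis); grey points are genes above background on all 4 arrays, red points the 7 Igfbp genes, dashed lines 2-fold, and genes beyond 4 in either direction are not drawn. Igfbp5 and Igfbp6 lie in the upper left, at -1.27 and 1.59 and at -0.94 and 2.12, away from the other members. The female Igfbp6 ratio is smaller in size when the trend is treated alike on all 4 arrays.

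The genes with the 4 signals most like those of Igfbp5, by the distance between centred log2 signals over the 4 arrays among 28234 genes, were Sema3c (distance 0.30), which encodes a secreted semaphorin, Dpt (0.32), an extracellular matrix protein of connective tissue, and Gata3 (0.32), a transcription factor. Nearest to Igfbp6 were Mgst2 (0.20), a microsomal glutathione transferase, Dpt again (0.28), and Ppapdc3 (0.31). Dpt read 5.61 and 4.29 in corn oil- and AAI-treated females and 4.74 and 6.77 in males, log2 ratios of -1.32 and 2.03. Mgst2 had log2 ratios of -0.87 in females and 1.90 in males. Igfbp6 was the 8th nearest gene to Igfbp5 and Igfbp5 the 10th nearest to Igfbp6, at a distance of 0.45, while the other 5 members ranked 1377th or lower for either gene. The ranking rests on 4 arrays, is a description, and depended on the trend correction. With the trend corrected on all 4 arrays, Sema3c, Dpt and Gata3 were again nearest to Igfbp5 and Mgst2 to Igfbp6, but Hoxc4 and Rbm38 followed Mgst2, and Igfbp6 was the 45th nearest to Igfbp5 and Igfbp5 the 98th nearest to Igfbp6, at a distance of 0.71.

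Igfbp7 (NM_008048, mm9 chromosome 5, 77778355 to 77778414), the low-affinity member, read 14.57 in females on corn oil, 13.84 in females on AAI and 14.55 in both male groups. Only the AAI-treated females stood apart, by a log2 ratio of -0.73 (1.66-fold lower), the 1789th lowest of 29714 genes. The male ratio was -0.00.

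Igfbp2 (NM_008342, chromosome 1, 72898677 to 72898736), secreted by hepatocytes, read 14.73 in the female controls and 14.53 in females on AAI, and 14.51 in the male controls and 13.90 in males on AAI. The AAI-treated males were lowest, with a log2 ratio of -0.61 (1.53-fold lower). The ratio of -0.20 in females was smaller than the SD between probes.

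Igfbp1 (NM_008341, chromosome 11, 7102442 to 7102501), the binding protein that insulin represses in hepatocytes, read 15.23 and 14.95 in females without and with AAI, and 14.09 and 14.07 in males. Both female arrays lay above both male arrays. The AAI ratio was -0.28 in females, just past the SD between probes, and -0.02 in males. Among the corn oil-treated mice, which differed by sex and not by dose, Igfbp1 was 2.20-fold higher in females, a log2 ratio of 1.14 and the 286th highest of 29111 genes. It was the only member at least 2-fold apart between the control sexes, where 1.86% of 30891 genes were at least 2-fold higher and 3.83% at least 2-fold lower in females. The Igfbp1 promoter shown above is the family window that matched the insulin response element core.

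Igfbp3 (NM_008343, chromosome 11, 7106193 to 7106252), the main serum carrier of IGFs, read 11.90 and 11.98 in females without and with AAI, and 11.65 and 12.17 in males. Its ratio was 0.52 in males (1.43-fold higher) and 0.08 in females, within the SD between probes. The further Igfbp3 probe (ENSMUST00000135887, 7107949 to 7108008) was dimmer, at 5.50 to 5.79, and gave 0.17 in males and 0.07 in females, both within that SD. The higher signal in males was thus seen on the brightest probe only.

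Igfbp4 (NM_010517, chromosome 11, 98913334 to 98913393), which the protease Pappa cleaves, read 12.59 and 12.62 in females without and with AAI, and 12.25 and 12.69 in males. The ratio was 0.43 in males (1.35-fold higher) and 0.02 in females. Its further probe (98909591 to 98909650) ranged from 11.00 to 11.35, with ratios of 0.08 in males and -0.25 in females. The higher male signal again rested on the brightest probe, and both Igfbp4 probes carry the same accession.

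Between the corn oil-treated sexes, 5 members were higher in females beyond the SD between probes and none was lower, against 27.5% and 25.3% of 29111 genes. The median log2 ratio of female over male was 0.34 over the 7 members, against 0.02 for all genes. After Igfbp1, the largest were Igfbp6 at 0.76 and Igfbp5 at 0.55, followed by Igfbp4 at 0.34 and Igfbp3 at 0.25. Igfbp2, at 0.22, and Igfbp7, at 0.02, were within the SD between probes. The further probes of Igfbp3 and Igfbp4, at -0.12 and -0.03, were within it too, whereas the further Igfbp5 probe was at least 1.49-fold higher in females. The corn oil-treated arrays enter the AAI ratios as well, so that these comparisons share samples.

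**Figure D4:**
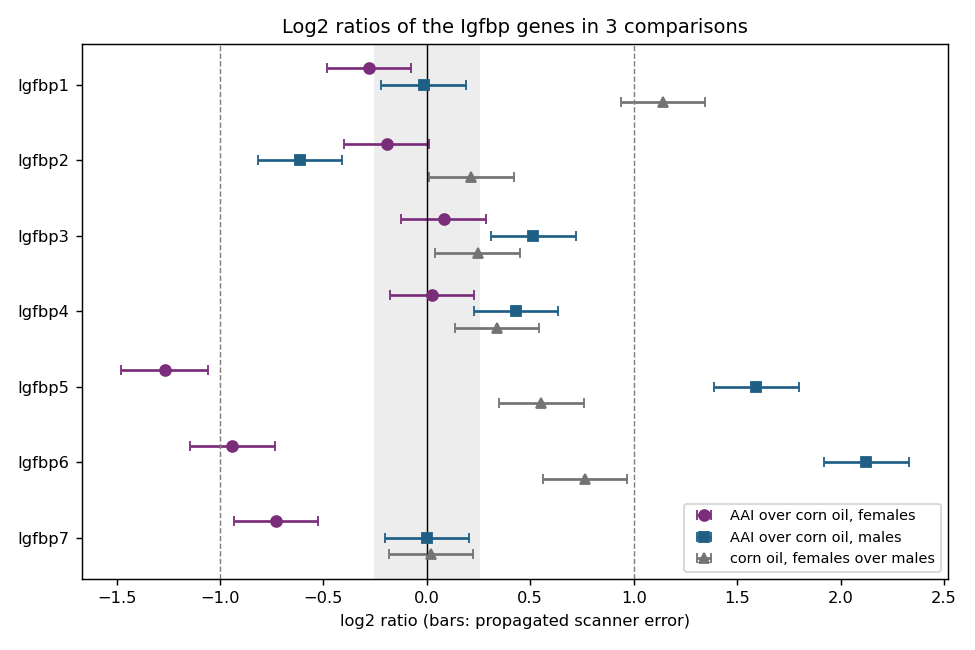
Log2 ratios of the 7 Igfbp genes, brightest probe, for AAI over corn oil in females (circles) and males (squares) and for females over males on corn oil (triangles). Bars are the propagated scanner error, the grey band is 0 plus or minus the SD between probes in females (0.25) and dashed lines mark 2-fold; Igfbp1 passes 2-fold in the control sexes only, Igfbp5 in both AAI comparisons and Igfbp6 in males.

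Read by its brightest probe, no gene of the rest of the IGF pathway was at least 2-fold apart between AAI and corn oil. Of 22 ligands, carriers, receptors, adaptors, IGFBP proteases and effectors, 20 were above background in each comparison and none was 2-fold higher or lower in any of them, the control sexes included. Their median log2 ratio was -0.06 in females and 0.02 in males, and this list and those below are to be read against the all-gene shares and medians given above. The ligand Igf1 had log2 ratios of -0.14 and -0.27, although its 3 probes differed in males, from -0.27 to 1.36. Igf2 had 0.47 and 0.29, and a further Igf2 probe gave 0.55 and 1.34. In males a further probe of each ligand thus passed 2-fold while the brightest did not. The adaptor Grb10 had 0.43 in males on its brightest probe and -1.13 on a further probe. Igfals, the acid-labile subunit that joins Igfbp3 and Igfbp5 complexes, was at -0.51 in females and -0.30 in males. The receptors Igf1r, Igf2r and Insr had 0.51, 0.17 and -0.19 in females and 0.02, -0.43 and -0.03 in males. Pappa, the protease of Igfbp4 and Igfbp5, and its inhibitor Stc2 were not well above background on any array.

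Of 8 genes of the growth hormone pathway, which drives Igf1 in liver, 1 was at least 2-fold lower in females, the feedback inhibitor Socs2 at -1.15, and none passed 2-fold in males, where Socs2 was at -0.77. Another Socs2 probe gave -0.48 in females. The growth hormone receptor Ghr was at -0.57 and -0.70 on its brightest probe, but its 4 probes ranged from -0.57 to 0.78 in females and from -1.12 to -0.53 in males. Between the control sexes, 1 of the 8 was at least 2-fold apart, the prolactin receptor Prlr, which was higher in females by 1.16 on its brightest probe and by 0.56 to 1.55 over its 3 probes.

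Proteins that share the IGFBP-type domain showed counts of their own. Of 11 such genes above background, 1 was at least 2-fold higher in females, Wisp2 at 1.66, and 4 in males, with none lower in either sex. The male genes were Cyr61 at 2.15, which encodes a matricellular protein, Htra3, a secreted serine protease, at 1.79, the endothelial proteoglycan Esm1 at 1.48 and the matricellular protein Nov at 1.12, the last pair named after their values were seen. A further Htra3 probe gave 0.00 in males. In females Cyr61 was at 0.00, Htra3 at 0.01 and Nov at 0.96, without the lower signals of Igfbp5 and Igfbp6. Esm1 was at -0.56 in females, so that its directions were those of Igfbp5 and Igfbp6. Htra1 had these directions too, at -0.68 in females and 0.64 in males. The list's median was 0.01 in females and 0.44 in males.

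Known inducers of the family were read from the genes they also induce. Of 10 genes of the fasted liver, none was at least 2-fold apart in females on its brightest probe and 2 were higher in males. These were Pdk4 at 1.93, which inhibits pyruvate dehydrogenase, and the coactivator Ppargc1a at 1.29. Ppargc1a was at -0.90 in females, and its further probe gave -1.23 in females and 1.75 in males. Of 10 genes of the amino acid response, none passed 2-fold in females and 2 were higher in males, the lipoprotein receptor Vldlr at 2.99 and the serine synthesis enzyme Phgdh at 1.05. Of 10 genes induced in hypoxia, none passed 2-fold in females and 2 were higher in males, the hexokinase Hk2 at 2.49 and Ankrd37 at 1.11. The medians of the fasting list, -0.30 in females and -0.32 in males, lay below those of all genes. The median of the amino acid response list was 0.18 in females and 0.56 in males, and that of the hypoxia list was -0.08 in females and 0.65 in males. Igfbp1, which fasting, amino acid shortage and hypoxia are each known to induce, was at -0.28 and -0.02. Between the control sexes, where Igfbp1 was higher in females by 1.14, the list medians were 0.40, 0.31 and 0.17, in the same order. At least 2-fold higher in females were 2 fasting genes, Pdk4 at 1.56 and Ppargc1a at 1.63. Of the amino acid response genes 2 were higher and 1 lower by this much, and no hypoxia gene was. A link of these genes to Igfbp1 was not tested. The arrays also held transcripts of muscle and fat, unequally between groups as given below. Their part in the ratios of these lists was not tested either.

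The tissue label was checked against markers. All 8 hepatocyte markers were above background on all 4 arrays, and none was at least 2-fold apart between AAI and corn oil, with medians of 0.06 in females and -0.08 in males. Quantile normalization gives equal ranks the same value, and Alb read 19.12 on both female arrays. The small ratios of the brightest markers are thus set in part by the method. Between the control sexes 1 of the 8, Apob, was at least 2-fold lower in females, at -1.41.

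Markers of other cells that express IGFBPs were read beside the family. Of 10 stellate cell and fibroblast markers, all above background on every array, 1 was at least 2-fold higher in females and 2 in males, none was lower, and the medians were -0.03 and 0.43. The 2 were Des, at 1.65 in females and 4.55 in males, which muscle also expresses, and the collagen gene Col1a1, at 0.57 and 1.13. Neither held on all its probes: the further Des probe gave -0.14 and 0.01, and the 4 Col1a1 probes ranged from -0.05 to 0.76 in females and from -0.82 to 1.65 in males. Of 9 markers of liver endothelium none passed 2-fold, with medians of -0.34 and -0.45. Of 7 Kupffer cell markers, 6 were at least 2-fold lower in females and 2 in males, with medians of -1.39 and -0.91. A further probe of Csf1r, among the 6, gave 0.22 in females. Of 7 cholangiocyte markers, Krt19 alone passed 2-fold on its brightest probe, at -1.20 in females and 1.26 in males, the same directions as Igfbp5 and Igfbp6. A further Cldn7 probe was lower in both sexes, at -1.31 and -1.78. The part of these cells in the Igfbp ratios was not tested.

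The arrays also held transcripts of tissues other than liver, unequally between groups. Summed levels below add the normalized linear signals of a list's brightest probes. All 9 skeletal muscle markers were at least 2-fold higher with AAI in both sexes on their brightest probes, with medians of 6.21 and 6.20. Further probes gave 0.32 in females and -0.76 in males for Myh2, and 0.12 and 0.22 for Myh4. The summed level of the muscle markers was 800 and 35362 in corn oil- and AAI-treated females and 4556 and 300123 in males. Of 8 fat markers, 3 of the 7 above background were at least 2-fold higher in females and 6 of 8 in males, with summed levels of 4811 and 5968 in females and 8193 and 88501 in males. Ucp1, the marker of brown fat, failed the background mark on both female arrays and read 4.98 in males on corn oil and 12.89 in males on AAI. Of 10 adrenal markers, none passed 2-fold in females and 7 were higher and 1 was lower in males, with summed levels of 3762 and 3712 in females and 6805 and 46842 in males. In males a further probe of Cyp21a1, counted as higher, gave 0.46, and a further probe of Dbh, not counted, gave 5.11. Of the kidney markers, none of 8 passed 2-fold in females and 1 of 7 was lower in males.

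Set beside the binding proteins, the summed levels of the muscle, fat and adrenal markers were highest in AAI-treated males, as the signals of Igfbp5 and Igfbp6 were. In females, muscle markers and 3 fat markers were higher with AAI while Igfbp5 and Igfbp6 were lower, and no adrenal marker passed 2-fold. Between the control sexes, 8 of 9 muscle markers, 4 of 8 fat markers and 6 of 10 adrenal markers were at least 2-fold lower in females on their brightest probes. Igfbp5 and Igfbp6 were higher there. The part of these tissues in the male Igfbp5 and Igfbp6 signals was not tested.

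**Figure D5:**
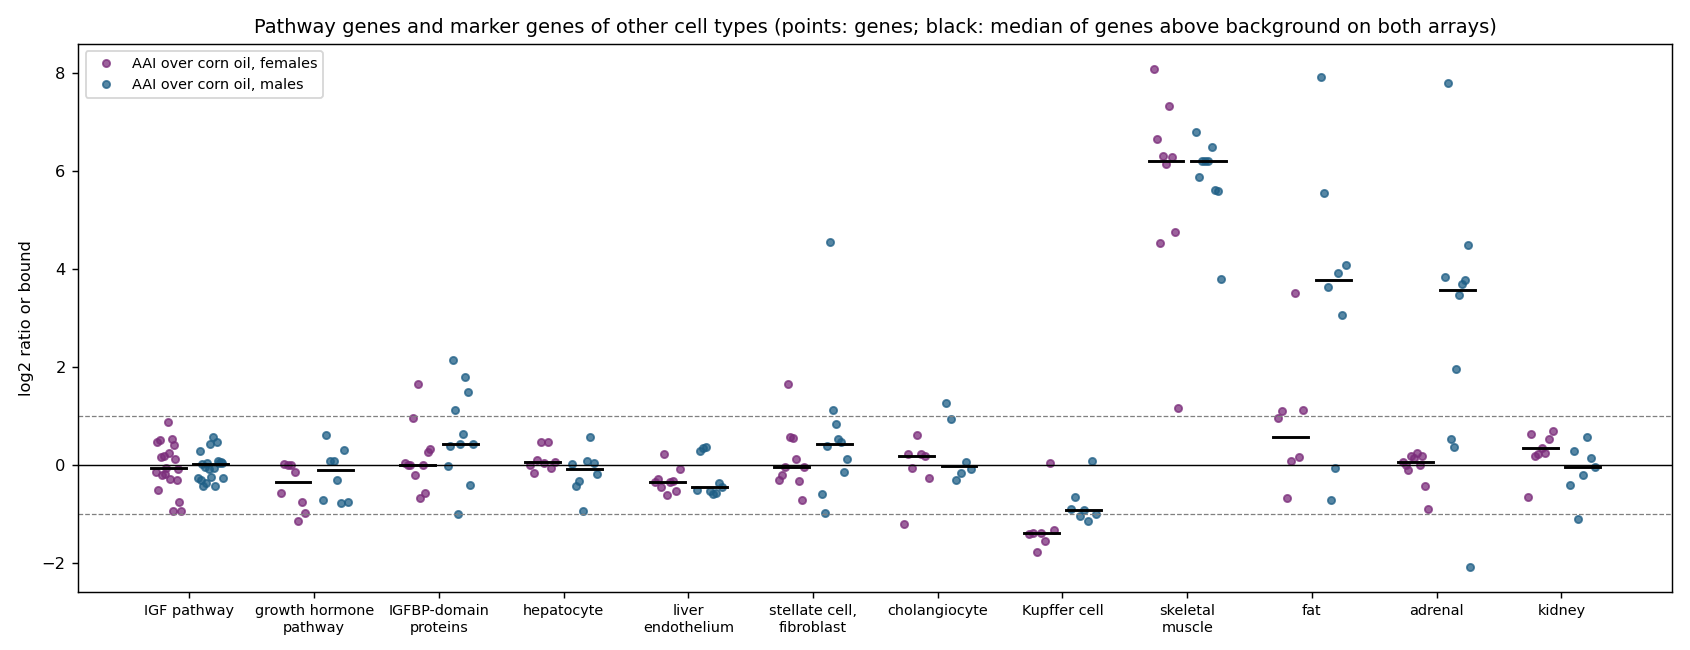
Log2 ratio of AAI over corn oil, or its bound where 1 array was not above background, for the genes of 3 pathway lists and 9 marker lists (1 point per gene; females purple, males blue). Black lines are medians over genes above background on both arrays and dashed lines mark 2-fold; muscle markers are high in both sexes, fat and adrenal markers mostly in males, and Kupffer cell markers lie below 0 except for 1 gene.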

How the data were processed

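The data are 4 single-channel arrays (Cy3), 1 per group, each of liver RNA pooled from 5 mice; all 4 lie on 1 slide. The authors used Feature Extraction 10.5.1.1 to quantify the spots and deposited linear spot intensity values, before and after background subtraction and a trend correction, with an error estimate and quality marks; these are not normalized between arrays. In the AAI-treated females' file, the processed intensity equals the background-subtracted one, within 1%, on 100% of the non-control spots well above background. The deposited table of the series gives a raw intensity, a quantile-normalized intensity and a detection call; its normalized intensity served as an alternative and the detection call was not used. Each array has 59305 non-control spots, of which 70 to 234 outlier spots were left out; 74.7% to 81.5% of the probes were well above background, and the median processed signal was 110 to 129. On 26 spots of corn oil-treated females and 92 of AAI-treated males, none of them an Igfbp spot, the processed signal equals the background value.

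From these files, log2 of the processed intensity was averaged per probe and quantile normalized (Python 3.11.15, numpy 2.4.6, pandas 2.3.3) over the 56495 probes measured on every array. Genes were defined by the gene names in the files and read by the brightest probe. A gene entered a comparison when well above background on at least 1 of its 2 arrays, with a bound where it was not on the other, and was counted from 2-fold. The groups, taken from the sample labels, allowed no test. The calculation was tested on simulated data. Alternatives were scaling to the 75th percentile or the median, normexp background correction with an offset of 50 (limma 3.58.1 in R 4.3.3), no trend correction, the deposited normalized values, averaged probes, outlier spots kept, a 3-fold threshold and other filters on dim probes. Correcting the trend on all 4 arrays, also for the order of the arrays and the nearest genes, and leaving out the replaced spots were added after seeing the data.

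The members and the 15 gene lists were chosen with earlier results of these data known. The text names all members and the 3 genes nearest to each member at least 2-fold apart. In the IGF and growth hormone lists it names genes at least 2-fold apart and the ligands, carriers and receptors. In each other list it names at most 3 genes with the largest ratios in either sex, of which not all are printed. Esm1 and Nov, which complete a count, and Htra1 and Grb10 were added after their values were seen.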

Additional observations from a re-analysis of the deposited data

Results flagged for a closer look

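The AAI ratios of Igfbp5 and Igfbp6 pointed in opposite directions in the sexes. The log2 ratio of AAI over corn oil was -1.27 in females and 1.59 in males for Igfbp5, and -0.94 in females and 2.12 in males for Igfbp6. The female Igfbp6 ratio was smaller in size when the trend was treated alike on all 4 arrays. Each group was 1 array, the doses were 5 mg/kg/day in females and 2 mg/kg/day in males, and the difference between the sexes was not tested. The direction of all 4 ratios was the same under each of the 8 alternatives that recompute them.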

How the results depend on the processing

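No ratio past the SD between probes changed sign under any of the 8 alternatives. Of 258 recomputed values and counts of the family, 246 moved by less than that SD, or 1.5 times for counts, and 12 moved by more. With normexp background correction, the log2 ratio was -0.93 for Igfbp5 and -0.51 for Igfbp6 in females and 1.32 for Igfbp5 in males, and no member was counted as at least 2-fold lower in females (0 in place of 1). For Igfbp6 in females it was -0.59 without the trend correction and -0.56 with the correction on all 4 arrays, an alternative added after seeing the data. Scaling to the 75th percentile gave 1.39 for Igfbp1, 0.46 for Igfbp2 and 0.27 for Igfbp7 between the control sexes. Median scaling counted 2 members as at least 2-fold lower in females. At 3-fold, 0 members were counted as lower in females and 0 as higher in corn oil-treated females over males. Ratios within the SD between probes changed sign under some alternatives, namely those of Igfbp3 (-0.12 to 0.08) and Igfbp4 (-0.16 to 0.02) in females, Igfbp1 in males, and Igfbp7 in males and between the control sexes. For the gene lists, 1407 of 1485 recomputed values moved little and 78 moved more. Over all genes in females, 434 were at least 2-fold higher and 978 lower, a share of 69.3% lower. This became 623 and 745 with 75th percentile scaling (54.5%), 139 and 343 with normexp, 127 and 225 at 3-fold, and 1078 and 1433 without a filter on dim probes (57.1%). In males, 1071 and 1402 became 554 and 643 with normexp, 471 and 510 at 3-fold, and 1793 and 2240 without the filter. Between the control sexes, 574 and 1184 became 225 and 475, 155 and 378, and 1253 and 1823. No paired analysis was possible because each group is 1 array. Signal over background limits the further Igfbp5 probe to bounds.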
